A study of Mus musculus with 8 samples.

Results

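The genes described here are 34 mouse genes induced by type I interferon, and their RNA was counted in whole livers of newborn mice by sequencing. They were chosen by symbol from a list of interferon-stimulated genes, with earlier results of these data known. Matching was by Ensembl identifier through GENCODE M21 (GRCm38), and all 34 were found among the 48440 genes of the count table. The livers came from outbred CD1 pups aged 3 to 8 days. The 4 knockout pups (animals 275, 276, 277 and 278) carried a germline deletion of Myo5b, which encodes the endosomal motor myosin Vb. The 4 control littermates (animals 279, 280, 281 and 282) were wildtype or heterozygous for that allele, and the labels do not say which control was which. No age, sex or litter is given for a single pup, so genotype was the only term of the test. The comparison asked whether this antiviral programme differed between knockout and control livers, and how evenly single livers showed it.

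Type I interferons (interferon alpha and beta) bind the receptor made of IFNAR1 and IFNAR2, whose kinases JAK1 and TYK2 phosphorylate STAT proteins. STAT2 and IRF9 are parts of the factor ISGF3, which binds interferon-stimulated response elements (ISREs) in promoters and switches on RNA sensors, enzymes that block viral RNA and protein synthesis, and regulators of the response itself. Interferon gamma signals through another receptor and acts on GAS elements, and many of the same genes respond to both. In liver, hepatocytes, Kupffer cells (the resident macrophages) and sinusoidal endothelium can all make this response.

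The promoters of these genes were searched for interferon response elements. As the members were listed as interferon-stimulated genes, an excess of these elements over all promoters describes the list and not these livers. RefSeq promoters (GRCm38.p6, from 250 bases before to 50 bases after a gene start) were at hand for 24 of the 34 members, in 28 entries. Dhx58, Ifi27l2a, Mx1, Mx2, Oas2, Parp14, Parp9, Rtp4, Usp18 and Zbp1 had none. The ISRE core, searched on both strands as GAAA, any 2 bases and again GAAA (TTTC, any 2 bases and TTTC on the other strand), was present in 13 of the 28 promoters (46.4%), against 3.44% of all 32851 promoters of the table. The GAS motif TTCNNNGAA, which reads the same on both strands, was present in 6 of the 28 (21.4%), against 8.3% of all promoters. Among 11 promoters of interferon gamma inducible GTPases 81.8% held an ISRE core and 54.5% a GAS motif, and among 22 promoters of MHC class I and immunoproteasome genes 22.7% and 9.09%. Both motifs were present in 3 member promoters, and in Bst2 they overlapped. The windows below run from 25 bases before the first core to 25 bases after the last one, or to the gene start. They are shown because they carry the cores that lie wholly before the gene start in 9 members, written 5′ to 3′ on the gene's strand with the ISRE cores in capitals.
Isg15 (chr4:156200850-156200921, minus strand): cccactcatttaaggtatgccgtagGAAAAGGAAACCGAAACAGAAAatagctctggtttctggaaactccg
Bst2 (chr8:71537562-71537627, minus strand): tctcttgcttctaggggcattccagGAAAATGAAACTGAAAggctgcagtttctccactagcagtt
Oas1a (chr5:120907526-120907570, minus strand): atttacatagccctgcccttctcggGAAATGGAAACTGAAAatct
Ifit3 (chr19:34583348-34583441, plus strand): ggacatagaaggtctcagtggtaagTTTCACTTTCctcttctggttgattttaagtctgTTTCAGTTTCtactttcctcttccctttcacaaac
Stat2 (chr10:128270251-128270310, plus strand): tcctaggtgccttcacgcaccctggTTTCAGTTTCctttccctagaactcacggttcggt
Trim30a (chr7:104465195-104465254, minus strand): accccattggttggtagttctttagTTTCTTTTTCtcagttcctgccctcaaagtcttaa
Ifit1 (chr19:34640760-34640838, plus strand): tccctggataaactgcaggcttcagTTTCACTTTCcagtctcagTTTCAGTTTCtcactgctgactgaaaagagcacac
Oas3 (chr5:120777700-120777759, minus strand): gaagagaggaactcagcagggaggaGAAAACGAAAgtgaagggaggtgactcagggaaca
Rsad2 (chr12:26456538-26456597, minus strand): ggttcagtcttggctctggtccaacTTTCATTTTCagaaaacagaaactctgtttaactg
Isg15 held 3 cores that overlap in 1 run, and Bst2 and Oas1a held 2 each in 1 run. Ifit3 and Ifit1 carried the same pair of cores, TTTCACTTTC and TTTCAGTTTC, 122 and 85 bases before the start for the nearer one. The first 6 genes listed rose in knockout livers and the last 3 did not pass the test. In Ddx58, Eif2ak2 and Ifih1 the core lay at or after the gene start and is not printed. An ISRE core was present in 6 of the 14 matched members that rose and in 6 of the 10 that did not pass. Dtx3l, Ifi35, Ifi44, Ifit2, Irf1, Irf7, Oasl2 and Xaf1 rose without an ISRE core in this window.

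Library totals ran from 14228268 to 18398039 counts, and the members had 20 to 3214 counts in a library, with a median of 271. Values are given as CPM, counts relative to the library total after scaling by the trimmed mean of M-values (TMM), with 275, 276, 277 and 278 in that order for knockouts and 279, 280, 281 and 282 for controls. Myo5b itself was 43.1 to 59.5 CPM in knockouts and 94.0 to 172 CPM in controls (log2 fold change -1.43, SE 0.18). The counts cover the whole gene and do not measure intact transcript. Hepatocyte markers stood high in every liver, with albumin (Alb) at 27250 to 76288 CPM.

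Interferon response genes were mostly higher in the knockout livers. Of the 34 members, all tested, 21 rose (61.8%), 0 fell and 13 did not pass an adjusted p of 0.05, while 9.27% of the 18274 genes tested rose and 11.4% fell. The median log2 fold change over the 34 members was 0.91, and it was 0.01 over all genes tested. Rsad2 alone had a value below 0, so 33 of 34 lay above 0, against 51.0% of all genes tested. In 20 members every knockout liver exceeded every control, which held for 10.8% of all genes tested. Because the members were chosen with earlier results of these data known, these shares are a description and not a test of the list. The adjusted p of the 21 genes ran from 2.34e-05 to 0.0389 in edgeR's quasi-likelihood test. DESeq2 called 23 members higher, beside 9.99% of the genes it tested. With the mean of erythroid markers as a covariate 0 members passed. With that covariate the variance of the genotype estimate was 9.71 times that without collinearity, and the median log2 fold change over members was 0.94 with a median SE of 0.78, against 0.25 without it.

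Markers of cell populations were compared in the same livers, beside the 9.27% of all genes tested that rose and the 11.4% that fell. Kupffer cell and macrophage markers rose in 12 of 15 cases, with a summed level of 1828 to 2096 CPM in knockouts and 1041 to 1224 CPM in controls, of which 281 was the highest, and a median log2 fold change of 0.71. Endothelial markers rose in 8 of 10 (1292 to 1536 CPM against 1013 to 1084 CPM). Lymphocyte markers rose in 4 of 15 tested and fell in 2 (65.8 to 83.8 CPM against 38.1 to 46.9 CPM), and dendritic cell markers rose in 1 of 8 tested (95.3 to 104 CPM against 73.2 to 82.5 CPM). Of 13 neutrophil and monocyte markers 0 rose and 2 fell (618 to 978 CPM against 796 to 1027 CPM). All 19 erythroid markers fell (2382 to 4804 CPM against 9592 to 12536 CPM). Of 11 hepatocyte markers 1 rose and 2 fell (80894 to 99389 CPM against 111493 to 141191 CPM). The shares that rose among dendritic cell markers (12.5%) and hepatocyte markers (9.09%) were near that of all genes tested. No marker of these lists was at 0 counts in all livers. The part of these populations in the interferon genes was not tested, and in bulk liver a change in cell number cannot be told apart from a change in RNA per cell.

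**Figure D1:**
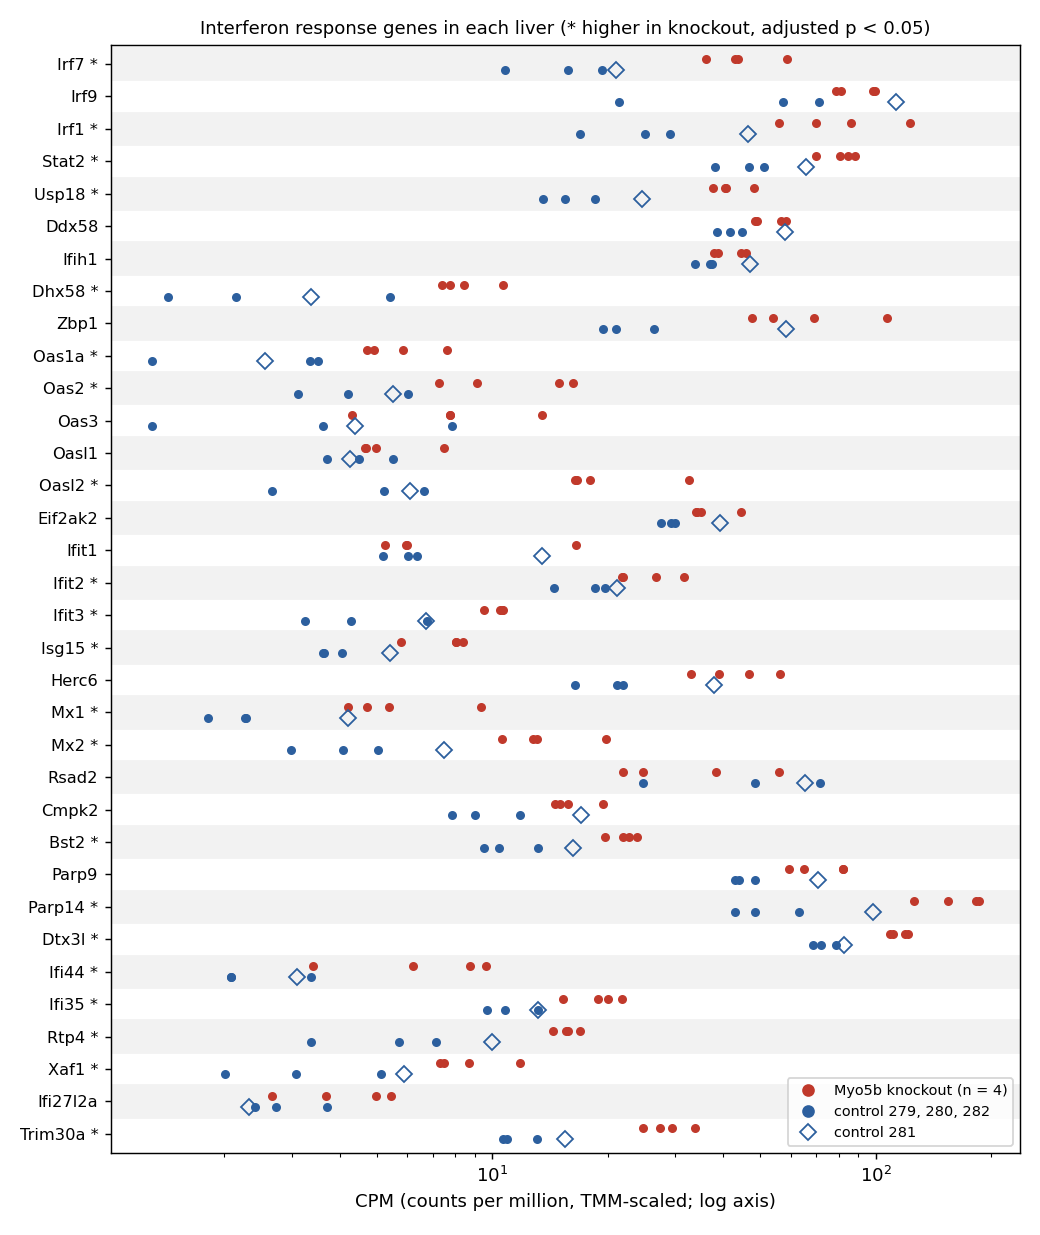
Level of each of the 34 interferon response genes in each liver, as CPM on a log axis. Red points are the 4 knockout livers, filled blue points controls 279, 280 and 282, and the open diamond control 281. Asterisks mark the 21 genes that passed the test, and in 20 genes all red points lie to the right of all blue ones.

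Among the signalling genes 4 of 5 rose. Irf7, the interferon regulatory factor that amplifies interferon production, was 43.0, 58.7, 36.0 and 43.8 CPM in knockouts and 10.8, 15.8, 21.0 and 19.3 CPM in controls. The lowest knockout was well above the highest control, and the log2 fold change was 1.44 (SE 0.20). Usp18, which removes ISG15 from proteins and blocks the receptor as negative feedback, stood at 40.4, 37.6, 40.7 and 48.1 CPM against 13.6, 15.5, 24.6 and 18.5 CPM (1.20, SE 0.16). Stat2, the STAT particular to type I and III signalling, stood at 88.2, 84.7, 70.0 and 80.8 CPM against 38.2, 46.6, 65.8 and 51.0 CPM (0.68, SE 0.14). Control 281 was the control nearest the knockouts for all 3 genes, and the groups did not overlap.

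Irf1, a factor induced by both interferon types, was 86.4, 70.0, 55.8 and 123 CPM in knockouts and 16.9, 25, 46.4 and 29.0 CPM in controls. The groups did not overlap and the log2 fold change was 1.51 (SE 0.38), but the edgeR adjusted p was 0.0358. The call was lost without knockout 275 (1.5), 276 (1.58) or 278 (1.27) or control 279 (1.32), 280 (1.44) or 282 (1.5). Irf9, the DNA-binding part of ISGF3, did not pass. Its knockout values were close together at 98.4, 81.2, 78.8 and 99.5 CPM, while the controls stood at 71.2, 21.4, 113 and 57.4 CPM. Control 281 was thus the highest of all 8 livers and control 280 the lowest (log2 fold change 0.44, SE 0.46, edgeR adjusted p = 0.582). Irf9 overlaps Rnf31 on the same strand, so reads of the pair can be hard to tell apart; 14 of the 34 members overlap some other annotated gene.

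Of the 4 nucleic acid sensors 1 rose, Dhx58. Dhx58 encodes LGP2, a regulator of the RIG-I-like receptors, and was 7.77, 10.7, 8.43 and 7.40 CPM against 1.43, 2.15, 3.38 and 5.40 CPM. No knockout fell within the control range, and the log2 fold change was 1.47 (SE 0.32). An antisense gene, Dhx58os, overlaps it, and the strand setting of the counting is not given in the sources used here. Zbp1, a sensor of Z-form nucleic acid that triggers cell death, was 68.9, 47.5, 54.1 and 107 CPM against 26.4, 19.4, 58.4 and 21.0 CPM. Control 281 lay among the knockouts and the other controls well below them, and the difference did not pass (1.14, SE 0.46, edgeR adjusted p = 0.144). It passed without control 281 (1.64), and with all 8 livers in edgeR's non-robust fit (1.14). Ddx58, which encodes the RNA sensor RIG-I, was 48.5 to 58.4 CPM in knockouts and 38.6 to 57.9 CPM in controls. It differed by 0.22 on the log2 scale (SE 0.12), and it too passed without control 281 (0.35). Ifih1, which encodes the sensor MDA5, was 37.8 to 45.8 CPM against 33.7 to 46.9 CPM (0.11, SE 0.12).

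Oligoadenylate synthetases make the messenger that activates RNase L, and 3 of the 6 genes of this group rose. Oasl2, a synthetase-like protein with ubiquitin-like domains, had the largest log2 fold change of the 34 members, at 2.01 (SE 0.31). It was 16.6, 32.6, 18 and 16.4 CPM in knockouts and 2.66, 5.23, 6.12 and 6.66 CPM in controls (GRCm38 chromosome 5, 114896936 to 114912234), so each knockout was more than any control and knockout 276 stood above the rest. Oas2 was 14.9, 16.2, 9.11 and 7.28 CPM against 3.12, 4.22, 5.52 and 6.03 CPM (1.33, SE 0.27). Oas1a was 4.93, 7.61, 5.85 and 4.73 CPM against 1.3, 3.35, 2.55 and 3.51 CPM (1.11, SE 0.30), a call lost without knockout 276 (0.94). For both genes the knockouts lay above the controls, by a narrow margin for the lowest. Oas1a has near-identical neighbours such as Oas1g (4.61 ± 0.409 CPM against 1.57 ± 0.932 CPM, SD, n = 4), so its count is uncertain.

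The other 3 genes of the group did not pass. Oas3 ranged from 4.31 to 13.5 CPM in knockouts and from 1.3 to 7.85 CPM in controls (0.96, SE 0.51). Control 282 was above 3 of the 4 knockouts (275, 277 and 278), and knockout 278 was also below control 281. With no low-count filter Oas3 passed (0.96). Oasl1, a translational brake on Irf7, was 4.99, 7.48, 4.69 and 4.67 CPM against 3.70, 5.50, 4.27 and 4.49 CPM. Knockout 276 stood apart, and the other 3 knockouts lay within the control range (0.28, SE 0.24). Eif2ak2 encodes PKR, the kinase that halts translation on sensing double-stranded RNA. It was 33.9, 35.0, 34.1 and 44.4 CPM against 29.2, 27.5, 39.2 and 30.0 CPM (0.23, SE 0.13), with knockout 278 and control 281 the highest of their groups.

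The IFIT proteins bind foreign RNA ends and sit in 1 cluster on chromosome 19, and 2 of the 3 members rose. Ifit3 (34583531 to 34588731) was 9.51, 10.5, 10.6 and 10.7 CPM in knockouts and 3.25, 6.77, 6.71 and 4.28 CPM in controls. The knockouts were nearly equal and all above the controls, with a log2 fold change of 0.97 (SE 0.23). Its near-identical copy Ifit3b (6.71 ± 1.43 CPM against 3.44 ± 1.36 CPM, SD, n = 4) makes the split of reads uncertain. Ifit2 was 21.8, 26.8, 21.9 and 31.6 CPM against 14.5, 18.5, 21.2 and 19.7 CPM. The groups did not overlap but nearly touched (0.46, SE 0.15, edgeR adjusted p = 0.0389). The call was lost without knockout 276 (0.43) or 278 (0.34) or control 279 (0.36), 280 (0.46) or 282 (0.49).

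Ifit1 (34640871 to 34650009) differed from its neighbours. It was 5.97, 6.01, 5.27 and 16.5 CPM in knockouts and 6.36, 6.03, 13.5 and 5.19 CPM in controls. In each group 3 livers lay between 5.19 and 6.36 CPM and 1 liver stood far above them, knockout 278 or control 281. The log2 fold change was 0.11 (SE 0.46, edgeR adjusted p = 0.904), and it was -0.44 without knockout 278 and -0.04 without control 282. Ifit1 and Ifit3, whose promoter windows share both cores printed above, were thus 1.08-fold and 1.97-fold higher in the knockout mean; the difference between the 2 genes was not tested.

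Isg15 encodes a ubiquitin-like protein that is joined to other proteins, and Herc6 encodes the ligase that does so in mice. Isg15 was 5.80, 8.05, 8.06 and 8.37 CPM in knockouts and 3.64, 3.62, 5.40 and 4.07 CPM in controls (0.85, SE 0.22). All knockouts exceeded all controls, with knockout 275 and control 281 nearest each other. Herc6 was 46.8, 39.0, 32.9 and 56.4 CPM against 21.1, 16.4, 37.9 and 21.9 CPM. Control 281 was above knockout 277, and the difference did not pass (0.84, SE 0.28, edgeR adjusted p = 0.0661). It passed without control 281 (1.14), and with all 8 livers in DESeq2, in limma-voom, in edgeR's non-robust fit and with no low-count filter (0.83 to 0.85).

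Of the membrane and nucleotide effectors, 3 of 5 rose. Mx2, of the dynamin-like antiviral GTPases, is annotated as a polymorphic pseudogene, so its RNA need not give a working protein. It was 19.8, 12.8, 10.6 and 13.1 CPM against 2.99, 4.09, 7.48 and 5.05 CPM (1.52, SE 0.26). Bst2, which encodes tetherin, a protein that holds budding virus at the cell surface, was 22.7, 23.8, 21.9 and 19.7 CPM against 13.2, 9.52, 16.2 and 10.4 CPM (0.83, SE 0.16). Neither gene's groups overlapped, and control 281 was the highest control for both. Mx1 was 5.39, 9.33, 4.21 and 4.73 CPM against 2.27, 2.28, 4.22 and 1.82 CPM (1.15, SE 0.32). It was the only member that rose with overlapping groups, since knockout 277 did not exceed control 281. The Mx1 call was lost without knockout 276 (0.84) or control 279 (1.08) or 282 (1.01).

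Rsad2 and Cmpk2 are neighbours on chromosome 12 whose products, viperin and a nucleotide kinase, act together to make a chain-terminating nucleotide. Rsad2 was 21.9, 56.0, 24.8 and 38.4 CPM in knockouts and 48.4, 24.7, 65.4 and 71.7 CPM in controls. Its values spread widely in both groups, with 3 of 4 controls above 3 of 4 knockouts, and its log2 fold change of -0.58 (SE 0.44, edgeR adjusted p = 0.435) was the lowest of the 34 members. Cmpk2 was 14.6 to 19.5 CPM in knockouts and 7.84 to 17 CPM in controls, where control 281 was the highest. It did not pass (0.51, SE 0.21), but it did without control 281 (0.77) and, with all 8 livers, when no low-count filter was used (0.51).

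Parp9, Dtx3l and Parp14 lie within 1 segment of chromosome 16 (35832874 to 35972605) and encode ADP-ribosyltransferases and a ubiquitin ligase induced in this response. Parp14 was 186, 154, 126 and 183 CPM in knockouts and 42.9, 48.3, 98.6 and 63.0 CPM in controls (1.36, SE 0.29). Every knockout exceeded every control, with control 281 nearest, and the call was lost without knockout 275 (1.29) or control 282 (1.36). Dtx3l was the steadiest of the 3, at 121, 109, 111 and 119 CPM against 78.7, 72.1, 82.8 and 68.7 CPM (0.61, SE 0.09). Parp9, which overlaps Dtx3l on the other strand, was 59.4 to 82.2 CPM in knockouts and 43.0 to 70.5 CPM in controls, the highest being control 281. It did not pass (0.49, SE 0.17, edgeR adjusted p = 0.0632). It passed without knockout 277 (0.56) or control 281 (0.68), and with all 8 livers in DESeq2, in limma-voom, in edgeR's non-robust fit and with no low-count filter (0.49 in each) and when scaled by library size alone (0.55).

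Of the remaining induced genes 5 of 6 rose. Trim30a, a restraint on inflammatory signalling, had the smallest adjusted p of the members (edgeR, 2.34e-05). It was 29.4, 33.7, 27.4 and 24.7 CPM in knockouts and 13.1, 10.9, 15.5 and 10.7 CPM in controls (1.20, SE 0.15), though it belongs to a family of close copies. Rtp4, a chaperone of membrane receptors, was 14.4, 15.8, 15.6 and 16.9 CPM against 3.38, 5.70, 10 and 7.15 CPM (1.25, SE 0.24). The knockouts varied little for Rtp4 and the controls more. Rtp4 overlaps Gm45338 on the same strand and Masp1 on the other, so reads of these genes can be hard to tell apart. Ifi44 was 3.42, 9.65, 6.21 and 8.74 CPM against 2.08, 2.08, 3.09 and 3.37 CPM (1.40, SE 0.31), with knockout 275 just above the controls.

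Xaf1, an interferon-induced promoter of apoptosis, was 11.8, 7.48, 7.32 and 8.68 CPM against 2.01, 3.08, 5.88 and 5.12 CPM (1.13, SE 0.29). Ifi35, a partner of Nmi in the same response, was 20.1, 21.8, 15.3 and 18.9 CPM against 9.68, 10.8, 13.2 and 13.2 CPM (0.70, SE 0.16). Neither gene's groups overlapped. Ifi27l2a, which encodes a small hydrophobic interferon-induced protein, was 2.67 to 5.45 CPM in knockouts and 2.32 to 3.70 CPM in controls and did not pass (0.59, SE 0.30).

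Levels were also scaled by exon length, which allows only a rough order between genes. That length joined all annotated exons of a gene and can exceed the length of its main transcript. For Irf7 it was 3776 bases, the whole gene span, which lowers its level (12.0 CPM per kilobase in knockouts). On this scale Bst2 was the highest member in knockouts at 24.4 CPM per kilobase, followed by Irf1 at 21.1 and Dtx3l at 20.1. In controls Bst2 (13.7 CPM per kilobase), Dtx3l (13.2), Irf9 (12.2) and Rsad2 (12.1) were the highest. Ifi44 was the lowest in both groups, at 1.14 and 0.433 CPM per kilobase. Beside the limit of exon length, these levels carry the errors of the CPM values. Neighbours in the order, such as Irf1 and Dtx3l, differ by less than the spread between livers.

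**Figure D2:**
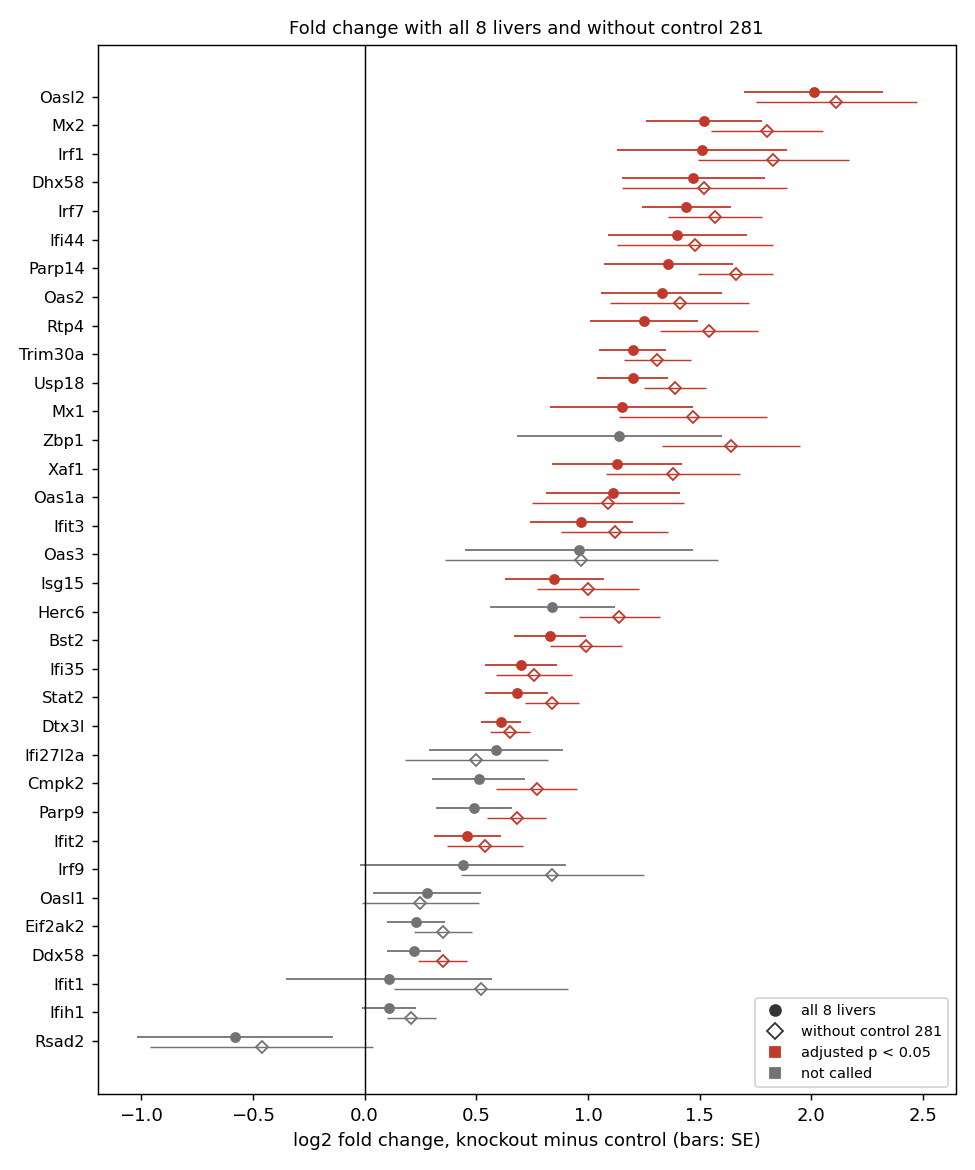
Log2 fold change of each member, knockout minus control, with its SE, from all 8 livers (circles) and without control 281 (diamonds). Red marks an adjusted p under 0.05 in that fit and grey a gene not called. Without control 281 Ddx58, Zbp1, Herc6, Cmpk2 and Parp9 turn red, and no gene turns grey.

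Control 281 stood nearer the knockouts than the other controls did. It was the highest control for 23 of the 34 members, against 24.7% of all genes tested, and exceeded the mean of the other 3 controls by a median of 1.39-fold (0.997-fold over all genes tested). Zbp1 (2.62-fold), Ifit1 (2.31-fold) and Irf9 (2.26-fold) were furthest above the other controls in this liver. Ifi27l2a (0.785-fold), Oasl1 (0.937-fold) and Oas1a (0.939-fold) were below the mean of the other 3 controls. Without control 281, 26 members rose and 0 fell, beside 7.93% and 9.82% of all genes tested, and the 21 genes called with all livers kept their call. The median log2 fold change over members was then 1.04. The added calls were Ddx58, Zbp1, Herc6, Cmpk2 and Parp9. Control 281 was the highest control for each of them, so leaving it out raises their fold change by the choice of liver. With knockout 278 left out as well, 24 members rose, beside 8.62% of all genes tested.

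The other controls and the knockouts also differed among themselves. Control 279 was the lowest control for 20 of 34 members, against 24.1% of all genes tested. Knockouts 276 and 278 were each the highest knockout for 14 members (24.9% and 28.8% of all genes tested), and knockout 277 was the highest for 0. As only 1 liver can be the highest for a gene, the members led by knockouts 276 and 278 could not overlap. Knockout 276 led for Oasl2, Oas3 and Mx1, and knockout 278 for Zbp1, Irf1 and Ifit1, the last at 2.87-fold the mean of the other knockouts. For Oas3 (0.445-fold) and Oas2 (0.543-fold) knockout 278 lay below the other knockouts. The mean log2 CPM over the 34 members was 4.45, 4.60, 4.28 and 4.53 in knockouts and 3.23, 3.37, 4.01 and 3.68 in controls, so the lowest knockout, 277, was above the highest control, 281.

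**Figure D3:**
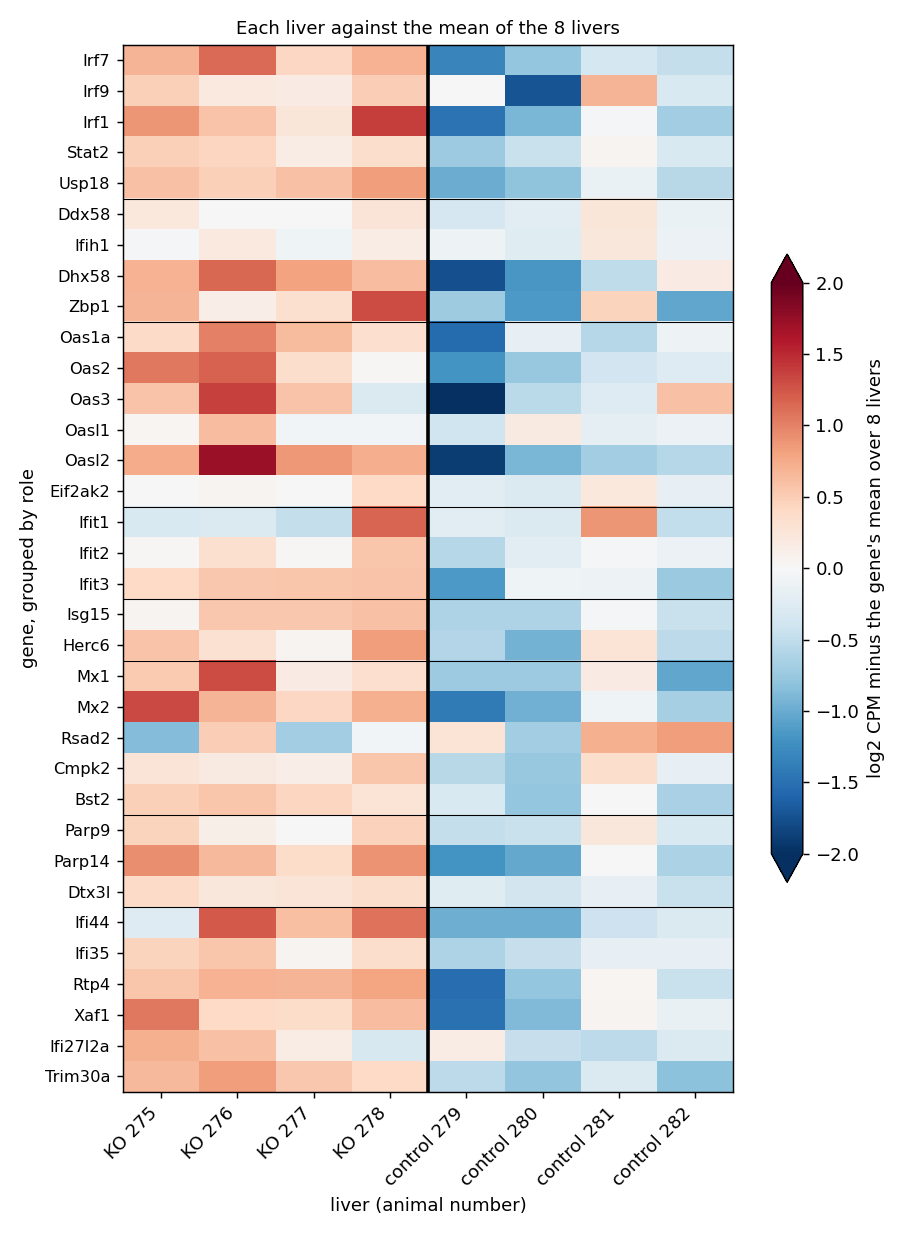
Log2 CPM of each member in each liver minus the gene's mean over the 8 livers, with genes grouped by role and the color scale running from -2 (blue) to 2 (red). Control 281 is pale or red for most genes where the other controls are blue, and Rsad2 is the gene where controls 279, 281 and 282 are redder than knockouts 275 and 277.

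Genes upstream of the response include the interferons and their receptors. No count of Ifnb1, Ifna1, Ifna2, Ifna4 or Ifna5 was found in any liver. That allows up to 0.163 to 0.211 CPM (3 counts over the library total without TMM scaling, counting error only). Other interferon alpha genes were not in the list examined, and the counting rule for reads that match several genes is not given. Interferon kappa (Ifnk), another type I interferon, was detected at 72, 52, 74 and 50 counts in knockouts and 21, 33, 28 and 48 counts in controls. Scaled to CPM, control 282 (3.37 CPM) lay above knockouts 276 and 278 (3.32 and 3.03 CPM), and the difference did not pass (0.75, SE 0.32, edgeR adjusted p = 0.114). Interferon gamma (Ifng) had 0 to 8 counts a liver and was too low to test. The receptor genes Ifnar1 (log2 fold change -0.02, SE 0.09) and Ifnar2 (0.04, SE 0.10) did not pass, while Ifngr1, a subunit of the interferon gamma receptor, rose from 77.4 ± 6.65 to 149 ± 20.1 CPM (SD, n = 4; 0.94, SE 0.10). It was the only 1 of 7 ligand and receptor genes tested that passed (14.3%), a share near the 9.27% of all genes tested that rose.

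Of the 14 other genes of kinases, STATs, IRFs and feedback, 6 rose and 0 fell, beside the 9.27% and 11.4% over all genes tested. Irf5, a factor downstream of Toll-like receptors, rose by 0.96 (SE 0.15), Socs3, a cytokine feedback inhibitor, by 0.77 (SE 0.18) and Stat3 by 0.39 (SE 0.08). Of 19 tested genes that sense nucleic acid or relay the signal to interferon production, 8 rose and 1 fell, beside the same shares. Samhd1, which destroys nucleotides needed by viruses, rose by 1.11 (SE 0.18), Ikbke, a kinase that activates IRF3 and IRF7, by 0.63 (SE 0.13), and Tlr3, a receptor for double-stranded RNA, by 0.77 (SE 0.18). Rnaseh2a, a subunit of the RNase that clears RNA-DNA hybrids, fell by 0.50 (SE 0.13).

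A second list held 48 other interferon-stimulated genes. Of 46 tested, 23 rose and 2 fell, with a median log2 fold change of 0.75. Tapbp (0.94, SE 0.10), Lgals3bp (0.73, SE 0.09) and Slfn5 (0.91, SE 0.12) had the smallest p among those that rose. Isg20, an RNA exonuclease, fell from 27.8 ± 3.67 to 8.59 ± 2.10 CPM (SD, n = 4; -1.69, SE 0.17), and Slfn9 fell by 0.41 (SE 0.12). The part of the erythroid markers, which also fell, was not tested.

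Among the lists nearest in biology, the 17 interferon gamma inducible GTPases gave a wide spread between single livers. They had a median log2 fold change of 1.52, yet 3 of 17 rose with all 8 livers (Gbp5, Tgtp2 and Gbp7), beside 9.27% of all genes tested. Without control 281, 15 of 17 rose, beside 7.93%. Leaving out the highest control raises the fold change by the choice of liver, so the added calls are no separate support. Control 281 was the highest control for all 17 (24.7% of all genes tested) and exceeded the other controls by a median of 3.18-fold. Knockout 278 was the highest knockout for all 17 (28.8% of all genes tested), by a median of 1.97-fold over the others. Of 23 genes of MHC class I presentation and the immunoproteasome 15 rose and 0 fell, beside 9.27% and 11.4% of all genes tested. Their median log2 fold change was 1.12, and control 281 exceeded the other controls by a median of 1.55-fold. For the 34 type I interferon genes those medians were 1.39-fold for control 281 and 1.07-fold for knockout 278. The differences between the lists were not tested, and their genes share the same 8 livers.

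**Figure D4:**
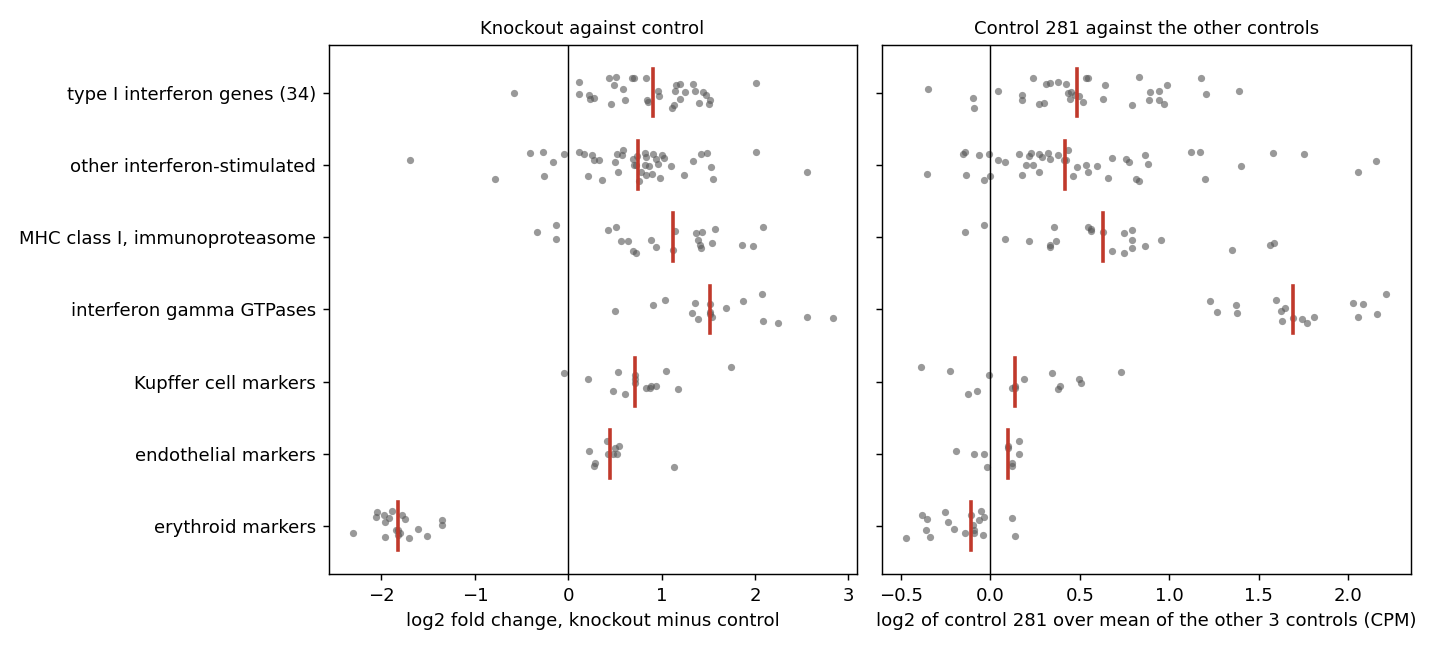
Each point is 1 tested gene of the list named at the left, and red bars are list medians. The left panel plots the log2 fold change, knockout minus control, and the right panel the log2 ratio of control 281 to the mean of the other 3 controls. The members have a median of 0.91 on the left, and the interferon gamma GTPases lie furthest right in the right panel.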

How the data were processed

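Liver RNA of 4 knockout and 4 control pups was sequenced. The deposited table holds raw counts per Ensembl gene. Per the labels' protocols the authors aligned reads with Rsubread 2.20.0 in R 4.4.1 to a build written GRMm38, read here as GRCm38, and per the submitters' processing notes counted them with featureCounts. The annotation, strand setting and multi-mapping rule were not given in the sources used here.

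Members and gene lists were chosen with earlier results of these data known. Symbols came from GENCODE M21, which matched 48058 of 48440 identifiers; the marker Ahsp had no match. The test was that of edgeR 4.0.16 in R 4.3.3. Genes were kept by filterByExpr (minimum count 10, minimum total 15), scaled by TMM and given a quasi-likelihood F-test (robust setting), with p adjusted by Benjamini-Hochberg over 18274 genes and a threshold of 0.05. The SE is the log2 fold change divided by the square root of F. Mean log2 CPM used a prior count of 2. Median ratios of single livers used 0.25 CPM added to both sides.

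Values in every liver are given for members that passed, members with a liver apart from its group by Dixon's ratio, and the highest member of each role; other lists name at most 4 called genes. Genes named from a count of 5 or fewer fall outside this rule. Library pairs within a group differed by 11.9 to 21.8 chi-square per degree of freedom, so none was taken as 1 library entered again. In 3 simulated runs of this comparison, over at least 17823 genes with 200 changed, the test recovered 30.8%, 61.2% and 84.8% of genes changed 1.5-, 2- and 4-fold, with 6.61% false calls. These runs varied each gene independently, while 20.7% of the genes tested were called in the real livers. Their rates therefore need not hold for the real comparison. Alternatives were median-ratio and library-size scaling, 2 other filters, DESeq2 1.42.0, limma-voom (3.58.1), a non-robust fit, an erythroid covariate and each library left out. Leaving out knockout 278 and control 281 together was added after the data were seen. Figures were drawn with matplotlib 3.10.9.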

Additional observations from a re-analysis of the deposited data

Results flagged for a closer look

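Each group of 4 livers was searched for a liver far from the other 3 of its group (gap to the nearest liver over the whole range above Dixon's critical value), over 68 groups, of which 6 were flagged. Chance alone flags about 1 group in 20. Knockout 276 stood above the other knockouts for Oasl2 (32.6 CPM against 16.4 to 18 CPM) and Oasl1 (7.48 CPM against 4.67 to 4.99 CPM), which are neighbours on chromosome 5. Knockout 278 stood above them for Ifit1 (16.5 CPM against 5.27 to 6.01 CPM) and Eif2ak2 (44.4 CPM against 33.9 to 35.0 CPM). For Isg15 knockout 275 was low (5.80 CPM against 8.05 to 8.37 CPM). Among controls, 281 stood above the rest for Ifit1 (13.5 CPM against 5.19 to 6.36 CPM).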

How the results depend on the processing

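The number of members that rose was 21 to 24 under the other scalings, filters, DESeq2 (23), limma-voom (22) and the non-robust fit, and 0 members fell in any setting. Leaving out 1 library gave 17 (without knockout 276 or control 282) to 26 (without control 281), and leaving out knockout 278 and control 281 together gave 24. With the erythroid covariate 0 members rose, as did 0.115% of all genes tested, while 5 had an unadjusted p under 0.05 and the smallest edgeR adjusted p was 0.30. Of the 21 calls, 16 held in all 16 settings other than that covariate; the exceptions were Irf1, Ifit2, Mx1, Parp14 and Oas1a. Irf1 also lost its call with no low-count filter (1.52), and Ifit2 in limma-voom (0.43) and without knockout 278 and control 281 together (0.41). The median log2 fold change over members was 0.80 to 1.06 in all settings. Direction turned for Ifit1 in limma-voom (-0.08), without knockout 278 (-0.44), without control 282 (-0.04; leaving out single libraries gave -0.44 to 0.52) and without knockout 278 and control 281 (-0.04), and with the erythroid covariate for Oasl1 (-0.04), Rsad2 (1.22) and Ifi27l2a (-0.20). The cause was not tested. No paired analysis was possible because the groups share no replicate number. Among called members that covariate moved the fold by over 1.5 times for Oas2 (0.29), Ifit2 (1.16), Irf1 (2.48) and Ifi44 (2.83). Members with the fewest counts (20 in a liver at the lowest) are the least precise.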
